A study of Mus musculus with 4 samples.

Results

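Described here are 36 genes of sterol and fatty acid synthesis and of sterol export, taken by symbol from a fixed list, of 41388 genes in each count table. The list holds 18 enzymes of cholesterol synthesis, 5 regulators of the SREBP pathway, 4 genes of sterol transport, uptake control and export, and 9 enzymes of fatty acid synthesis. All 36 were found in the tables, and 34 had enough counts to be tested, among 13838 genes tested in all. Not every gene of these pathways is covered.

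The RNA came from Mnk3, an established line of mouse cells similar to ILC3. These innate lymphocytes live in tissues and are a source of the cytokines IL-22 and IL-17. The control group was untreated. The stimulated group received 10 ng/ml of IL-1b together with 10 ng/ml of IL-23, and exposure lasted about 16 h. Each group had 2 libraries, made from total RNA after removal of ribosomal RNA. Number 1 marks the library titled rep1 and number 2 the one whose title has no number. Whether the libraries of a group are separate cultures is not in the labels. The p-values therefore reflect spread between libraries that may be technical only. Both groups are the same line, and the labels name no other genotype or agent.

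Cells make cholesterol from acetyl-CoA through the mevalonate pathway, which leads by way of farnesyl diphosphate, squalene and lanosterol to cholesterol, and they make fatty acids from the same acetyl-CoA. Transcription of the enzyme genes is driven by the SREBP proteins, which the escort protein SCAP carries out of the endoplasmic reticulum when sterols are low and which INSIG proteins hold back when sterols are high. The nuclear receptor LXR, when bound by oxysterols, turns on the exporters Abca1 and Abcg1 and the ubiquitin ligase gene Mylip. Lymphocytes that enlarge and divide are known to need both lipid classes for membranes.

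Summed gene counts ranged from 23047723 to 29078765 per library. Levels of a gene are given as CPM, counts relative to library size with composition balanced by the TMM method, as mean ± SD with n = 2. Levels of different genes are compared only as RPKM, the same CPM per kilobase of listed gene length. A change is the log2 ratio of stimulated to control ± SE in edgeR's quasi-likelihood test, where the SE is the absolute change over the square root of its F statistic. A gene rose or fell where its p, adjusted by Benjamini-Hochberg over all genes tested, was under 0.05. By that rule 17.5% of all genes tested rose and 18.3% fell, and the median change over all genes was -0.02. As for cell identity, all 12 ILC3 marker genes examined were tested, and their summed level was 6063 and 6161 CPM in the controls and 2409 and 2620 CPM in the stimulated libraries. Of the 12, 7 fell and 1, Id2, rose, or 58.3% and 8.33% beside 18.3% and 17.5% of all genes tested. The 6 adipocyte markers, of interest because fat cells make lipids in bulk, summed to at most 0.137 CPM in any library, and Cidec and Fabp4 had no counts at all. Summed levels per library were 12.0 to 24.0 CPM for 6 T cell markers and 1.66 to 3.79 CPM for 5 B cell markers. Of the 2 B cell markers tested, Cd79b fell (edgeR adjusted p = 0.0265) and Cd79a did not pass. Trac, a T cell receptor gene, had 4.15 and 8.61 CPM in the controls and 0.2375 and 0.394 CPM in the stimulated libraries. It fell (edgeR adjusted p = 0.00151), and the other 3 T cell markers tested did not pass. The 6 myeloid markers summed to 4.98 and 2.90 CPM in the controls and 3.84 and 9.63 CPM in the stimulated libraries, and Lyz2 and Cd14 had no counts. Among them Adgre1, a macrophage surface receptor, rose from 0.0664 and 0 CPM to 1.74 and 8.19 CPM (edgeR adjusted p = 0.0161). The other 3 myeloid markers tested did not pass, with Itgam at -1.199 ± 0.774, Fcgr1 at -1.326 ± 1.147 and Csf1r at -0.208 ± 0.535. The 4 epithelial markers summed to 1.39 and 1.025 CPM in the controls and 0.396 and 0.306 CPM in the stimulated libraries. Krt8, the only epithelial marker tested, fell (edgeR adjusted p = 0.0108). The 5 erythroid markers summed to 0.475 to 0.963 CPM. The 7 stromal markers summed to 7.63 and 8.61 CPM in the controls and 85.5 and 32.8 CPM in the stimulated libraries. Of the latter, Lum, a matrix proteoglycan, made up 84.1 and 30.6 CPM. Lum rose from 0.166 and 0.0342 CPM in the controls (edgeR adjusted p = 0.00608). The collagen gene Col3a1 went the other way, with 6.74 and 8.44 CPM in the controls and 0.554 and 1.75 CPM in the stimulated libraries. It fell (edgeR adjusted p = 0.0084), while the collagen genes Col1a1 and Col1a2 stayed at or below 0.263 CPM. The part of these cell types in the results was not tested. In bulk RNA, fewer cells of a kind and less RNA per cell cannot be told apart.

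Promoter sequence of the listed genes is shown first. RefSeq promoter windows (GRCm38.p6, 250 bases before to 50 after the annotated start) were at hand for 28 of the 36 genes, 5 of them with more than 1 window, and were searched on both strands. The motifs were the core of the sterol regulatory element TCACNCCAC, to which SREBP binds, the CCAAT box (CCAAT, or ATTGG on the other strand), to which NF-Y binds, and the E-box CACGTG. The CCAAT box was found in 14 of 15 sterol enzyme genes with a window, or 93.3%, against 41.1% of all 27025 genes in the table and 42.7% of the genes tested here. Counted by window it was in 14 of 18 sterol enzyme windows, or 77.8%, against 37.4% of all windows. Of the sterol enzyme genes only Acat2 had none, and it rose. Tm7sf2 and Ebp, which held a CCAAT box, did not pass, and the others that held one rose. Of the matches in sterol enzyme genes 29 lay before the start, 20 of these within 100 bases of it, and 9 genes held 2 or more. The fatty acid enzymes held a CCAAT box in 3 of 6 genes, and the SREBP regulators in 4 of 5, namely Insig1, which rose, and Insig2, Srebf1 and Srebf2, which did not pass. The E-box was in 3 of 15 sterol enzyme genes (20.0%), against 8.09% of all genes and 11.5% of the genes tested here. It was also in promoters of Insig1, which rose, and of Scap and Abca1, which did not pass. The TCACNCCAC core was in 1 of 15 sterol enzyme genes, Hmgcs1, against 1.44% of all genes. No match of one motif shared bases with a match of another in these genes. A match is a description of the letters, not a binding site. Any link between a motif and a change in level was not tested. The stretches below were chosen after the matches were seen, to show sterol enzyme promoters with 2 or more CCAAT boxes, the only TCACNCCAC match, the promoter of Fasn, and that of Mylip, a gene with 3 CCAAT boxes that fell. They read 5′ to 3′ in the direction of the gene and end before its RefSeq start. Capitals mark CCAAT or ATTGG and, in Hmgcs1, also TCACCCCAC. The stretches of Idi1 and Msmo1, and part of that of Hsd17b7, lie inside the gene span used for counting, which starts earlier.
Hmgcs1 (chr13:119690104-119690320, plus strand): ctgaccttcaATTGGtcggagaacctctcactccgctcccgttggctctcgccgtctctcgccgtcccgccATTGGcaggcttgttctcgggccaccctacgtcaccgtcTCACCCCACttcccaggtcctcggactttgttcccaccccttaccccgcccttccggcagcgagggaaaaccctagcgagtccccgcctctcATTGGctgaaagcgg
Mvk (chr5:114444086-114444268, plus strand): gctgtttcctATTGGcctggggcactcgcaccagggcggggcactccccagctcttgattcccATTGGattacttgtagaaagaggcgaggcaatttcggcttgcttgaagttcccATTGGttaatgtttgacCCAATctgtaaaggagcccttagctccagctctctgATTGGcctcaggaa
Idi1 (chr13:8885551-8885605, plus strand): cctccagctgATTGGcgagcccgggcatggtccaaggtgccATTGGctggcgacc
Msmo1 (chr8:64733619-64733748, minus strand): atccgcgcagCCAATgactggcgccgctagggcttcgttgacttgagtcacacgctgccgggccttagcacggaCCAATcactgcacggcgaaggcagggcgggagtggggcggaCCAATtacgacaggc
Hsd17b7 (chr1:169969206-169969380, minus strand): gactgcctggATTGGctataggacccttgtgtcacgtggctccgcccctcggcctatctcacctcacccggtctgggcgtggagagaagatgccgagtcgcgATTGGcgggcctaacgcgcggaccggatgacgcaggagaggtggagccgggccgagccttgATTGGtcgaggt
Fasn (chr11:120824592-120824647, minus strand): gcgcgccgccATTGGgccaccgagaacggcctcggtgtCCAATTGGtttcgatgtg
Mylip (chr13:45389542-45389689, plus strand): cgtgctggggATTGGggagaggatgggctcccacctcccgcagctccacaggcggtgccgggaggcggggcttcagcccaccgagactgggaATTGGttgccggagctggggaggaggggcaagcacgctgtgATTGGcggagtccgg
In Fasn the last match reads the same on both strands, so its CCAAT and ATTGG overlap.

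Transcripts of the cholesterol enzymes rose nearly as a block. Of the 18 sterol enzyme genes 16 rose, or 88.9% beside 17.5% of all genes tested, and none fell, with 0 lower at an edgeR unadjusted p under 0.05 and 0 lower in DESeq2 and limma-voom. The median change was 0.94 and the range was 0.19 to 1.37. Both stimulated libraries lay above both controls in 17 of the 18 genes, and in 34.4% of all genes tested. Together the 18 genes summed to 1331 and 1454 CPM in controls 1 and 2 and to 2856 and 2419 CPM in stimulated 1 and 2. The change was modest in size for each gene, with the steepest, Fdps, at 2.59-fold.

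**Figure D1:**
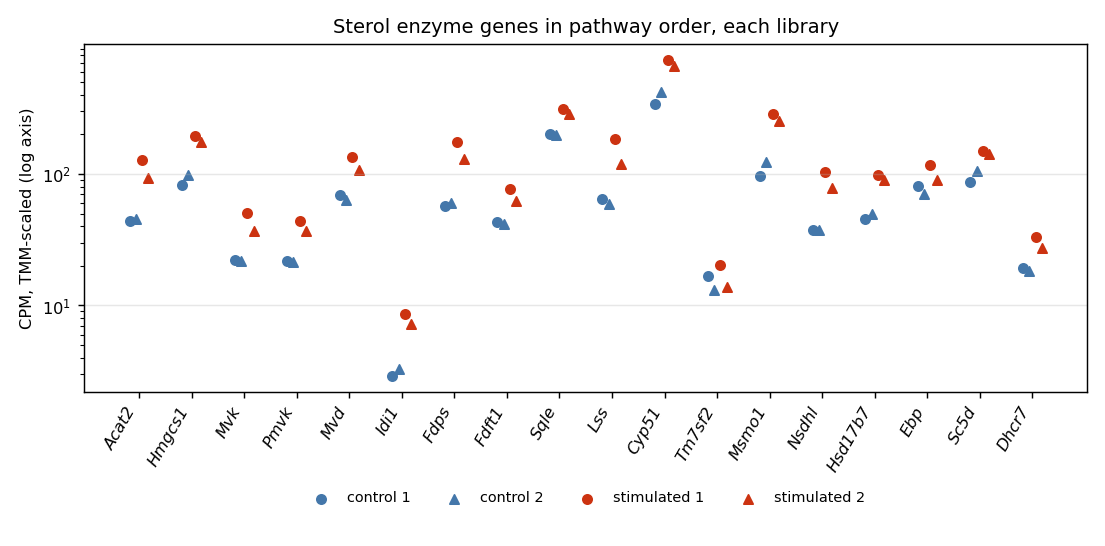
Level of each sterol enzyme gene in every library, in CPM scaled by TMM on a log axis, with genes in pathway order along the horizontal axis. Circles are libraries 1 and triangles libraries 2, controls blue and stimulated red. The red points lie above the blue ones for every gene except Tm7sf2, where they overlap, and the red circle lies above the red triangle in all 18.

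The 7 genes of the mevalonate and isoprenoid steps all rose, with a median change of 1.04. Hmgcs1, the synthase that makes HMG-CoA, had 82.1 and 98.7 CPM in controls 1 and 2 and 194 and 177 CPM in stimulated 1 and 2. It rose by 1.04 ± 0.15 (edgeR adjusted p = 0.00299). Both stimulated libraries were well above both controls, and the change held between 0.91 and 1.18 with any 1 library left out. Fdps, which makes farnesyl diphosphate, the last intermediate shared by sterols and prenylated proteins, had 57.3 and 60.5 CPM in the controls and 174 and 131 CPM in the stimulated libraries. It rose by 1.37 ± 0.17 (edgeR adjusted p = 0.00173). The controls lay close together and the stimulated libraries apart, with stimulated 1 the higher. Between these steps, the kinases Mvk and Pmvk rose by 0.97 ± 0.19 and 0.90 ± 0.15 and the decarboxylase Mvd by 0.88 ± 0.16.

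The lowest of the sterol enzymes was Idi1, the isomerase that supplies the building block for prenyl chains. It had 2.92 and 3.28 CPM in the controls and 8.55 and 7.27 CPM in the stimulated libraries, a rise of 1.35 ± 0.24 (edgeR adjusted p = 0.00634). Its level was 0.884 RPKM in controls, at the percentile 18.6 of all genes tested. In raw counts, the 88 and 96 of the controls were well below the 216 and 166 of the stimulated libraries.

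Acat2, the thiolase that joins acetyl-CoA units at the start of the pathway, had 44.1 and 45.2 CPM in the controls and 128 and 93.2 CPM in the stimulated libraries. It rose by 1.31 ± 0.18 (edgeR adjusted p = 0.00238). Its count is uncertain because Acat2 shares sequence with other genes. Of the 50-base stretches in its annotated transcripts, 39.1% also occur in Acat3, a close copy that had 22 to 38 counts per library. Within that share, 11.2% of its stretches also occur in transcripts of Tcp1, a chaperonin subunit gene on the same stretch of chromosome. Tcp1 had 6784 and 6847 counts in controls 1 and 2 against 16098 and 13008 in stimulated 1 and 2, a change of 1.40 ± 0.15. The listed exons of Acat2 and Tcp1 do not overlap in the count tables, and the treatment of reads that match both is unknown here. Shares above 20% were also found for Acaca (30.4%), Fdft1 (26.5%), Fdps (26.2%) and Idi1 (25.3%). Apart from Ctsb, which overlaps Fdft1, the partners that held over 1% of their stretches were gene models named by Gm and a number. Of those matched to the count tables, the highest count was that of Gm3571, which shares 12.1% of the Fdps stretches and had 36 and 43 counts in controls 1 and 2 against 97 and 79 in stimulated 1 and 2.

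The 3 genes of the squalene and lanosterol steps also rose. Lss, lanosterol synthase, which closes the sterol rings, had 64.1 and 59.2 CPM in the controls and 185 and 118 CPM in the stimulated libraries, a rise of 1.30 ± 0.22 (edgeR adjusted p = 0.00581). As a ratio, its stimulated libraries differed most among the sterol enzymes, and the change was 0.94 without stimulated 1. Sqle, squalene epoxidase and a known control point of the pathway, had 202 and 198 CPM in the controls and 314 and 288 CPM in the stimulated libraries. It rose by 0.59 ± 0.14 (edgeR adjusted p = 0.0162), the smallest rise among sterol enzymes that passed, although its 4 libraries fell into 2 tight pairs. The call ended without control 2 (edgeR adjusted p = 0.0545) and without stimulated 1 (0.088). Fdft1, squalene synthase, rose by 0.71 ± 0.16 (edgeR adjusted p = 0.013, and 0.0866 without stimulated 1). Of the exonic bases of Fdft1, 26.8% overlap Ctsb on the opposite strand, which had 8854 to 15004 counts per library, so part of its count is uncertain if strand was not used.

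Of 8 genes for the steps after lanosterol, 6 rose, with a median of 0.79 over the 8. Cyp51, the lanosterol demethylase, was the most abundant of all 34 tested members per length, at 88.9 RPKM in controls and 163.9 RPKM in stimulated cells. It had 339.6 and 423 CPM in the controls and 739 and 665 CPM in the stimulated libraries, a rise of 0.88 ± 0.17 (edgeR adjusted p = 0.0082). The controls differed by more than in most members, but both stayed far below the stimulated libraries. Msmo1, Nsdhl and Hsd17b7 act in succession to strip methyl groups from the ring. Msmo1 had 96.5 and 123 CPM in the controls and 286 and 253 CPM in the stimulated libraries, a rise of 1.30 ± 0.17 (edgeR adjusted p = 0.00204). Nsdhl rose by 1.29 ± 0.17 and Hsd17b7 by 0.98 ± 0.14, and neither call ended with any 1 library left out.

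Toward the end of the pathway the changes were smaller. Sc5d, a desaturase, rose by 0.60 ± 0.15 (edgeR adjusted p = 0.0217), and Dhcr7, the reductase of the last step in one branch, by 0.70 ± 0.16 (0.0167). The call of Sc5d ended without control 1 (edgeR adjusted p = 0.108) and without stimulated 1 (0.0745), and that of Dhcr7 without control 2 (0.0505) and stimulated 1 (0.113). Ebp, a sterol isomerase, had 81.3 and 71.0 CPM in the controls and 116 and 90.5 CPM in the stimulated libraries, and 0.44 ± 0.17 did not pass (edgeR adjusted p = 0.0823). It passed without stimulated 2 (edgeR adjusted p = 0.0403) and with no low-count filter (0.0298). Tm7sf2, a sterol reductase whose reaction can also be carried out by another enzyme, had 16.7 and 13.2 CPM in the controls and 20.2 and 13.9 CPM in the stimulated libraries (0.19 ± 0.24, edgeR adjusted p = 0.563). The groups overlapped, and 15.3% of its exonic bases also belong to Vps51 on the same strand.

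Levels of the enzyme genes differed between the stimulated libraries in one direction. Stimulated 1 was above stimulated 2 in all 18 sterol enzyme genes and all 7 tested fatty acid enzymes, while it was above in 49.5% of all genes tested with counts in every library. The median ratio of stimulated 1 to stimulated 2 was 1.22 over the sterol enzymes and 1.39 over the fatty acid enzymes, against 0.997 over all genes. The controls showed no such lean in the sterol enzymes, where control 1 was the higher in 10 of 18 and the median ratio was 1.01. In the fatty acid enzymes control 1 was the higher in 5 of 7, or 71.4%, with a median ratio of 1.06. Among all genes control 1 was the higher in 49.3%, with a median ratio of 0.997. Without stimulated 1, 12 of the 18 sterol enzymes rose, and without stimulated 2, 17 did. What set the stimulated libraries apart was not tested.

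**Figure D2:**
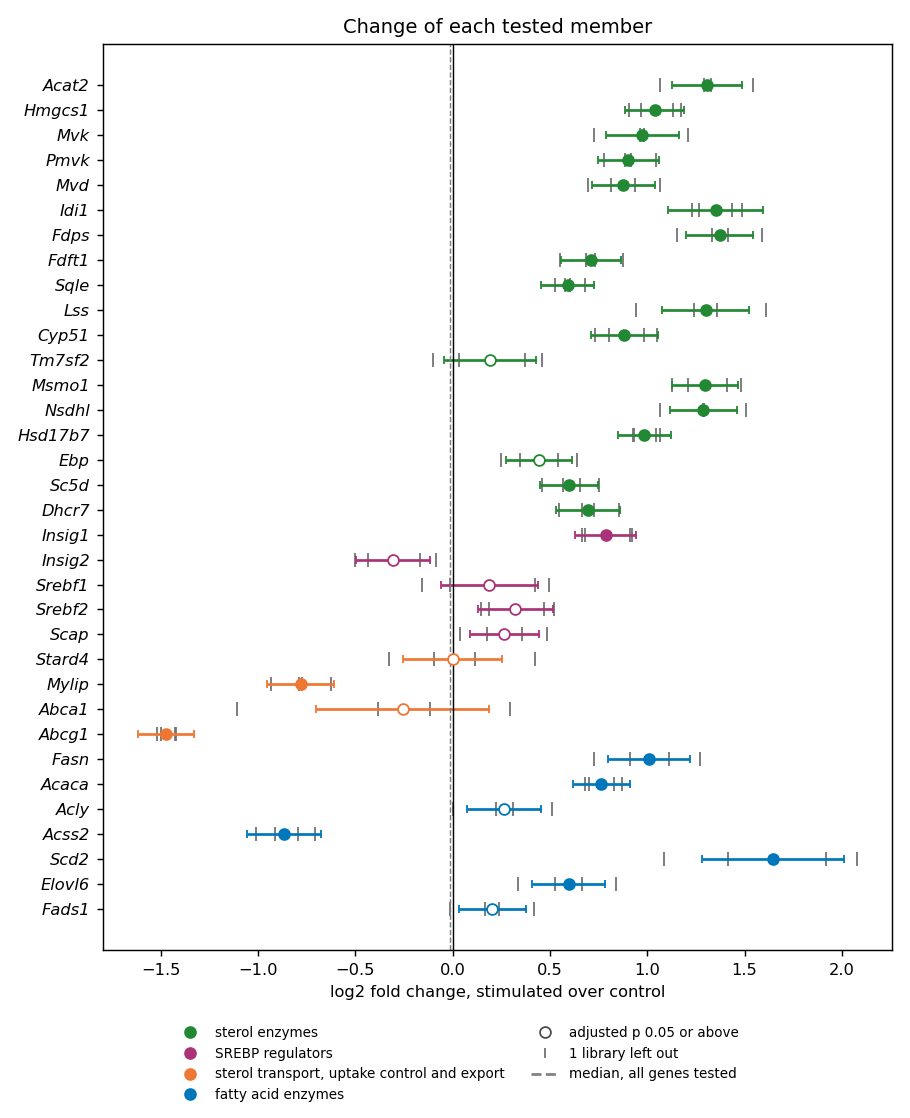
Change of each tested gene on the log2 scale, stimulated over control, with bars for the SE, colours for the role of the gene, and open points where the edgeR adjusted p was 0.05 or above. Grey ticks are the values with 1 library left out and the dashed line is the median of all genes tested, -0.02. Sterol enzymes sit to the right, between 0.19 and 1.37, while Abcg1, Acss2 and Mylip sit to the left.

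Regulators of the pathway changed less than the enzymes. Of the 5, Insig1 rose and the other 4 did not pass. The share that rose, 20%, lay near the 17.5% of all genes tested. Insig1, which encodes the endoplasmic reticulum protein that retains SCAP and is itself a known SREBP target, had 49.3 and 58.9 CPM in the controls and 99.8 and 86.7 CPM in the stimulated libraries. It rose by 0.79 ± 0.16 (edgeR adjusted p = 0.0091), with both stimulated libraries above both controls. Insig2, its paralogue, had 35.0 and 26.2 CPM in the controls and 26.8 and 22.7 CPM in the stimulated libraries, and -0.31 ± 0.19 did not pass (edgeR adjusted p = 0.255). Per length, Insig1 was 1.81 and 2.89 times the level of Insig2 in the controls and 4.80 and 4.93 times in the stimulated libraries. The ratio was thus higher in both stimulated libraries than in either control.

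The genes for the factors themselves did not pass. Srebf2, which encodes the SREBP known mainly for cholesterol genes, was the member with the second-highest level per length in controls, at 84.4 RPKM, and had 367 and 476 CPM in the controls and 470.5 and 583 CPM in the stimulated libraries (0.32 ± 0.19, edgeR adjusted p = 0.234). Srebf1, known mainly for fatty acid genes, had 148 and 109 CPM in the controls and 177 and 115 CPM in the stimulated libraries (0.19 ± 0.25, edgeR adjusted p = 0.59). In both genes the groups overlapped. The counts do not separate the isoforms of Srebf1. Scap, the escort, had 0.26 ± 0.18 (edgeR adjusted p = 0.289), and 18.9% of its exonic bases overlap an opposite-strand transcript with 22 to 39 counts per library. At an edgeR unadjusted p under 0.05, still only Insig1 differed among the 5, and DESeq2 and limma-voom called 0 of the 5 lower. With a replicate block for the kind of title, which no label ties to a shared culture or day, calls were added. Srebf2 and Scap were then higher and Insig2 lower. Activity of SREBP proteins, set by cleavage, was not measured.

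Genes of sterol export and uptake control moved down where they moved. Abcg1, the exporter that passes cholesterol to lipoprotein particles, had 54.4 and 57.9 CPM in the controls and 19.5 and 21.0 CPM in the stimulated libraries. It fell by 1.47 on the log2 scale (SE 0.14, edgeR adjusted p = 0.000749), to a level 2.77-fold lower, and stayed between -1.52 and -1.42 with any 1 library left out. It was the member with the smallest adjusted p. Mylip, which encodes the ubiquitin ligase that lowers lipoprotein receptors at the cell surface, had 29.5 and 29.9 CPM in the controls and 15.3 and 19.3 CPM in the stimulated libraries. It changed by -0.78 ± 0.17 (edgeR adjusted p = 0.0128, and 0.0815 without stimulated 1). In both genes each stimulated library was below each control, as for 36.3% of all genes tested.

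Abca1, the exporter that loads apolipoprotein particles, was scarce at 0.438 RPKM in controls. With 124 and 145 counts in controls 1 and 2 against 138 and 48 in stimulated 1 and 2, the groups overlapped (-0.26 ± 0.44, edgeR adjusted p = 0.688). Leaving out 1 library gave values from -1.11 to 0.30, and no direction can be read for it. Stard4, a soluble carrier that moves cholesterol between membranes and is known as an SREBP target, had 77.5 and 130.2 CPM in the controls and 95.3 and 112 CPM in the stimulated libraries (0.00 ± 0.25, edgeR adjusted p = 0.999). The stimulated values lay between the controls.

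**Figure D3:**
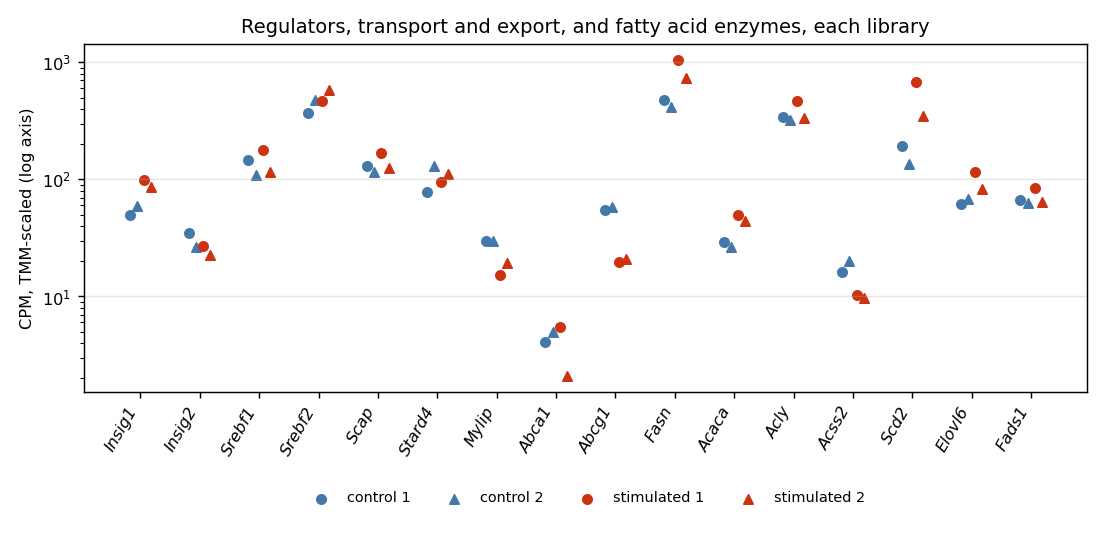
Level in every library, in CPM scaled by TMM on a log axis, of the regulators, the transport and export genes and the fatty acid enzymes that were tested. Circles are libraries 1 and triangles libraries 2, controls blue and stimulated red. Both red points lie below both blue ones for Abcg1, Mylip and Acss2 and above them for Insig1, Fasn, Acaca, Scd2 and Elovl6.

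Fatty acid enzymes were less uniform. Of the 9, 7 were tested, 4 of them rose and 1 fell, with a median change of 0.59. These are 57.1% and 14.3% of those tested, beside 17.5% and 18.3% of all genes. Fasn, the fatty acid synthase, had 475 and 413 CPM in the controls and 1052 and 735 CPM in the stimulated libraries. It rose by 1.01 ± 0.21 (edgeR adjusted p = 0.0107). Both stimulated libraries were above both controls, with stimulated 1 the higher, and the change was 0.73 without stimulated 1. Acaca, the carboxylase that makes malonyl-CoA for Fasn, had 29.0 and 26.4 CPM in the controls and 49.7 and 44.4 CPM in the stimulated libraries, a rise of 0.76 ± 0.15 (edgeR adjusted p = 0.00827). Per length it was far scarcer than Fasn, at 1.83 RPKM in controls against 45.1 RPKM.

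Scd2, a desaturase that makes monounsaturated fatty acids, had the steepest rise of all members. It had 193 and 136 CPM in the controls and 681.5 and 350.3 CPM in the stimulated libraries, a change of 1.65 ± 0.37 or 3.13-fold (edgeR adjusted p = 0.0225). Both stimulated libraries were above both controls but lay far apart, and the change was 1.09 without stimulated 1. The call ended without control 1 (edgeR adjusted p = 0.0986) and without control 2 (0.152). Its paralogue Scd1, the main form in liver and fat, was near absent, with 3 and 2 counts in controls 1 and 2 against 4 and 2 in stimulated 1 and 2. With so few counts Scd1 was not tested, and no change can be read. Of the 50-base stretches of Scd2, 3.97% occur in another gene. Elovl6, which lengthens the product of Fasn, had 62.1 and 68.5 CPM in the controls and 115 and 82.4 CPM in the stimulated libraries, a rise of 0.59 ± 0.19 (edgeR adjusted p = 0.0451). That call ended with upper quartile (edgeR adjusted p = 0.0607) and total-count scaling (0.0731), with limma-voom (0.0572), without robust estimation (0.0531), and without control 1 (0.132), control 2 (0.0607) or stimulated 1 (0.27, change 0.34). Leaving out either control left 2 fatty acid enzymes that rose.

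The enzymes that supply acetyl-CoA did not follow. Acly, which makes it from citrate, was abundant at 63.1 RPKM in controls and had 343.5 and 323 CPM there and 466 and 334 CPM in the stimulated libraries (0.26 ± 0.19, edgeR adjusted p = 0.318). Stimulated 2 lay between the controls. Acss2, which makes it from acetate and is known as an SREBP target, had 16.3 and 20.1 CPM in the controls and 10.3 and 9.63 CPM in the stimulated libraries. It changed by -0.87 ± 0.19 (edgeR adjusted p = 0.0135), opposite to Fasn and Acaca, and the call ended without control 2 (0.0723) and without stimulated 2 (0.0598). Acss2 exons overlap those of Gss, Ggt7 and Acss2os on the opposite strand by 3.89%, 1.94% and 3.30% of their bases. The genes of polyunsaturated fatty acid synthesis gave little. Fads1, a desaturase, had 66.5 and 63.3 CPM in the controls and 85.2 and 64.3 CPM in the stimulated libraries (0.20 ± 0.17, edgeR adjusted p = 0.391). Fads2 had 0 counts in both controls and 5 and 0 in the stimulated libraries.

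Over all 36 members, 21 rose, 3 fell, 10 did not pass and 2 were not tested, a count that covers 61.8% and 8.82% of those tested beside 17.5% and 18.3% of all genes. The median change was 0.70 beside -0.02 for all genes. For 25 of the 34 the groups did not overlap, 22 higher and 3 lower, beside 70.7% of all genes tested in either direction. By level per length, 27 of the 34 tested members lay above the all-gene median of 7.60 RPKM in controls. They ran from Cyp51 at 88.9 RPKM, Srebf2 at 84.4 and Acly at 63.1 down to Idi1 at 0.884 and Abca1 at 0.438. In stimulated cells the order at the top was Cyp51 at 163.9, Fdps at 122.9 and Srebf2 at 105.5 RPKM. Scd2 moved from the 10th to the 4th place among members and Fdps from the 4th to the 2nd.

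Other genes of the same metabolism were examined as 5 lists of 70 genes, of which 62 were tested, 12 rose and 9 fell, with a median change of 0.03. These shares, 19.4% and 14.5%, lie near the 17.5% and 18.3% of all genes tested. Of 10 genes of the isoprenoid branch and other sterol enzymes 4 rose, or 40% beside 17.5% of all genes, and none fell. At an edgeR unadjusted p under 0.05, in DESeq2 and in limma-voom 0 were lower. Pdss1, which makes the prenyl tail of ubiquinone, rose by 1.76 ± 0.19 from 7.43 and 6.87 CPM to 26.8 and 21.6 CPM (edgeR adjusted p = 0.00106). Nus1, a subunit of the enzyme that makes dolichol chains, rose by 0.85 ± 0.15. Acat1, the mitochondrial thiolase and a relative of Acat2, had -0.01 ± 0.13 and did not pass.

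Of 11 other regulators tested 1 rose and 2 fell, or 9.09% and 18.2% beside 17.5% and 18.3% of all genes. Mlx, a partner of carbohydrate-responsive factors, rose by 0.57 ± 0.14, while Lpin1, a phosphatidate phosphatase that also curbs SREBP, and Nr1h2, which encodes LXR beta, changed by -0.65 ± 0.17 and -0.58 ± 0.19. Nr1h2 had 131 and 94.9 CPM in the controls and 80.6 and 70.0 CPM in the stimulated libraries (edgeR adjusted p = 0.0495), and its value was -0.34 without control 1. Its call ended in 7 alternatives, among them DESeq2 size factors (edgeR adjusted p = 0.0536). The calls of Mlx ended without control 1 (edgeR adjusted p = 0.103) and stimulated 1 (0.0953), and those of Lpin1 without control 1 (0.089), control 2 (0.0513) and stimulated 2 (0.157). Of 11 genes of sterol handling and oxysterols tested 3 fell, or 27.3% beside 18.3% of all genes, and none rose. At an edgeR unadjusted p under 0.05, in DESeq2 and in limma-voom 0 were higher. The 3 that fell were Lrp8, Hsd3b7 and Npc2. Lrp8, a lipoprotein receptor, had -1.03 ± 0.18. Hsd3b7, which degrades oxysterols on the way to bile acids, had -0.68 ± 0.17. Npc2, a lysosomal cholesterol carrier, had -0.44 ± 0.13. The call of Npc2 ended without any 1 of the 4 libraries (edgeR adjusted p = 0.0805 to 0.174), and that of Hsd3b7 without control 2 (0.1), stimulated 1 (0.0955) or stimulated 2 (0.0543). Gramd1a, a sterol transporter at membrane contacts, had 0.11 ± 0.14.

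Among 21 tested genes of other fatty acid and glycerolipid synthesis 7 rose and 2 fell, or 33.3% and 9.52%. Of all genes tested 17.5% rose and 18.3% fell. Dgat2, an enzyme of triglyceride synthesis, had 0.896 and 0.478 CPM in the controls and 11.9 and 13.2 CPM in the stimulated libraries, a change of 4.18 ± 0.34 or 18.1-fold (edgeR adjusted p = 0.000477). Dgat1, the other enzyme of that step, was named after its values were seen and fell from 185 ± 6.35 to 89.7 ± 9.10 CPM (-1.04 ± 0.14, edgeR adjusted p = 0.00229). Hacd3, a dehydratase of very long chain synthesis, had 95.3 and 123 CPM in the controls and 543 and 549.5 CPM in the stimulated libraries (2.32 ± 0.18, edgeR adjusted p = 0.000367). Fabp5, a fatty acid carrier, rose by 1.81 ± 0.19. Elovl5, which lengthens polyunsaturated chains, had -0.08 ± 0.16. Of 9 fatty acid oxidation genes 2 fell, or 22.2% beside 18.3% of all genes tested, and none rose. At an edgeR unadjusted p under 0.05, 1 was higher, and in DESeq2 and limma-voom 0 were. Cpt1a, the gate for entry of fatty acids into mitochondria, had 71.3 and 62.3 CPM in the controls and 17.1 and 14.1 CPM in the stimulated libraries, 4.28-fold lower (-2.10 ± 0.17, edgeR adjusted p = 0.000451). Cpt2, its partner on the inner membrane, changed by -0.97 ± 0.18. Hadha, a subunit of the trifunctional oxidation enzyme, had 0.38 ± 0.14 and did not pass (edgeR adjusted p = 0.08), although its unadjusted p was 0.0336.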

How the data were processed

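Gene counts of 4 libraries were used, 2 untreated and 2 stimulated. Per the file headers, the authors deposited a raw count per gene, and the values are whole numbers. The submitters' processing notes name STAR, Subread and featureCounts. Their versions, the genome build, the annotation and the use of strand: not given in the sources used here. The deposited CPM is the count relative to the total of its library, and the deposited RPKM is that CPM per kilobase of listed length, both checked on the values and neither used further.

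Symbols came from GENCODE release M21, where 40254 of 41388 identifiers matched. Of the 36 genes, 20 had the same span there. The genes were chosen with earlier results of these data known, and so were the lists, which were written from textbook knowledge. Counts were tested with edgeR 4.0.16 in R 4.3.3 (filterByExpr, TMM, robust quasi-likelihood, treatment only), with Benjamini-Hochberg adjustment over 13838 genes. The test was also run on counts simulated from the levels and spread of this fit. In the fit to the real counts the biological coefficient of variation was 18.4%. Alternatives were other scalings and filters, DESeq2 1.42.0, limma-voom (limma 3.58.1), no robust estimation, a block and leaving out each library. Beyond the listed genes, those named were, per other list, the 3 called genes of lowest adjusted p and the most abundant gene (mean CPM) not called. 2 genes that this rule names are not reported here. Differences between libraries of a group exceeded counting error (chi-square per degree of freedom 42.8 and 24.8). Promoter sequences are from RefSeq on GRCm38.p6.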

Additional observations from a re-analysis of the deposited data

How the results depend on the processing

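Over 53 genes followed through 13 alternatives, 644 of 689 values kept their direction and side of the threshold, 38 lost the call, 7 gained it and 0 reversed. Of the 24 calls among the listed genes, DESeq2, DESeq2 size factors and both other filters kept all 24. Upper quartile and total-count scaling, limma-voom and the fit without robust estimation kept 23, losing Elovl6. Leaving out 1 library left 16 to 22 listed genes higher and 2 to 3 lower, 12 to 17 sterol enzymes higher, and 2 to 4 fatty acid enzymes higher and 0 to 1 lower. The same step left 9 to 12 other pathway genes higher and 5 to 8 lower, and 1593 to 2001 of all genes higher and 1665 to 2035 lower. In those fits fewer samples enter, and the lone library of a group is assumed to vary like the others. With a replicate block for the kind of title, which no label ties to a shared culture or day, 24 listed genes were higher and 4 lower (added were Ebp, Srebf2 and Scap, edgeR adjusted p = 0.000388, 0.0244 and 0.0493, and Insig2, lower, 0.0242), 20 other pathway genes higher and 17 lower, and 3986 of all genes higher and 4000 lower. Libraries of the same kind of title deviated together (r = 0.49 across 13838 genes, which are not independent). With 2 libraries a group and few residual degrees of freedom, the fit with the block leans on the spread of other genes. Depth limits Scd1 and Fads2, whose counts were at most 5 in any library.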
